A study of Mus musculus with 12 samples.

Results

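A set of 10 genes of the fibroblast growth factor (FGF) pathway was followed in mouse haploid embryonic stem cells (ESCs). They are the ligand gene Fgf4, the receptor genes Fgfr1, Fgfr2 and Fgfr3, the Sprouty feedback inhibitor genes Spry1, Spry2 and Spry4, the ERK phosphatase gene Dusp6, and the ETS-family transcription factor genes Etv4 and Etv5. They were chosen by symbol for their roles, with earlier results of these data known. All 10 of 10 were found among the 24421 symbols of each deposited table. RNA-seq counts were available for 12 libraries in 2 tables. The series concerns loss of Etl4, a gene whose deficiency, by the study's title, stabilises haploidy, and the comparisons ask which transcripts differ between Etl4 knockout (KO) and wild-type (WT) cells.

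All cells were androgenetic haploid ESCs, which carry only a paternally derived chromosome set, on a C57BL/6 background. In the parental line called OdG there were 2 libraries of Etl4 KO line 1, 2 of Etl4 KO line 2 and 2 of WT. In the parental line called EG1 there were 3 libraries of an Etl4 KO line and 3 of WT. The labels describe neither the edit nor the culture medium, and give EG1 KO as a single line. Nothing in them says that replicates were separate cultures, so p-values reflect library-to-library spread, possibly of technical origin.

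FGF4 is secreted by ESCs and acts on their own FGF receptors, which signal through adaptors, RAS, RAF and MEK to the kinase ERK. Active ERK induces genes that damp the same pathway. Sprouty proteins block the step from receptor to RAS and RAF, DUSP6 removes phosphate from ERK, and ETV4 and ETV5 are transcription factors made in response to FGF signalling. In mouse ESCs this pathway is known for pushing cells out of the naive state and towards lineage commitment, and in the embryo for primitive endoderm formation.

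Total counts ran from 16110028 to 19706599 per library. Etl4 had 97.2 and 101 CPM (the count of a gene relative to the scaled total of its library) in OdG KO line 1 and 110 and 114 CPM in line 2, against 210 and 206 CPM in OdG WT. It had 131, 134 and 132 CPM in EG1 KO, against 265, 264 and 260 CPM in EG1 WT. Transcript of the targeted gene was therefore reduced and still counted in every KO library (log2 fold change -0.98 ± 0.034 SE in OdG and -0.99 ± 0.036 in EG1). The OdG WT libraries stood apart in a pair of neighbouring genes: Guf1 had 3 counts in each and Gnpda2 at most 1, against 587 to 881 and 231 to 414 counts in the libraries of the other groups. Every OdG KO value below rests on those 2 WT libraries.

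In OdG KO, taken as the mean of both lines on the log scale, 9 of the 10 genes were higher than in OdG WT and 1, Fgfr3, was lower. Calls were made at an adjusted p under 0.05 from edgeR's quasi-likelihood test with Benjamini-Hochberg adjustment over all genes tested. Every adjusted p below comes from that test unless DESeq2 is named. In this comparison 29.4% of all genes tested were called higher and 30.5% lower, 59.9% in all, so a call by itself was common. The median log2 fold change of the 10 genes was 0.62, against -0.01 over all genes. Because the 10 genes were chosen with earlier results of these data known, their counts are no independent test of the set. In EG1 KO, 0 of the 9 genes tested were called higher and 1, again Fgfr3, was called lower, where 3.60% of all genes were called higher and 4.06% lower, 7.66% in all. At an unadjusted p under 0.05, 1 gene was higher there, and the share of all genes at that threshold was not computed. DESeq2 also called 0 higher and 1 lower, with 698 genes called in all. The median of the 9 genes in EG1 KO was 0.03, against 0.00 over all genes.

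**Figure D1:**
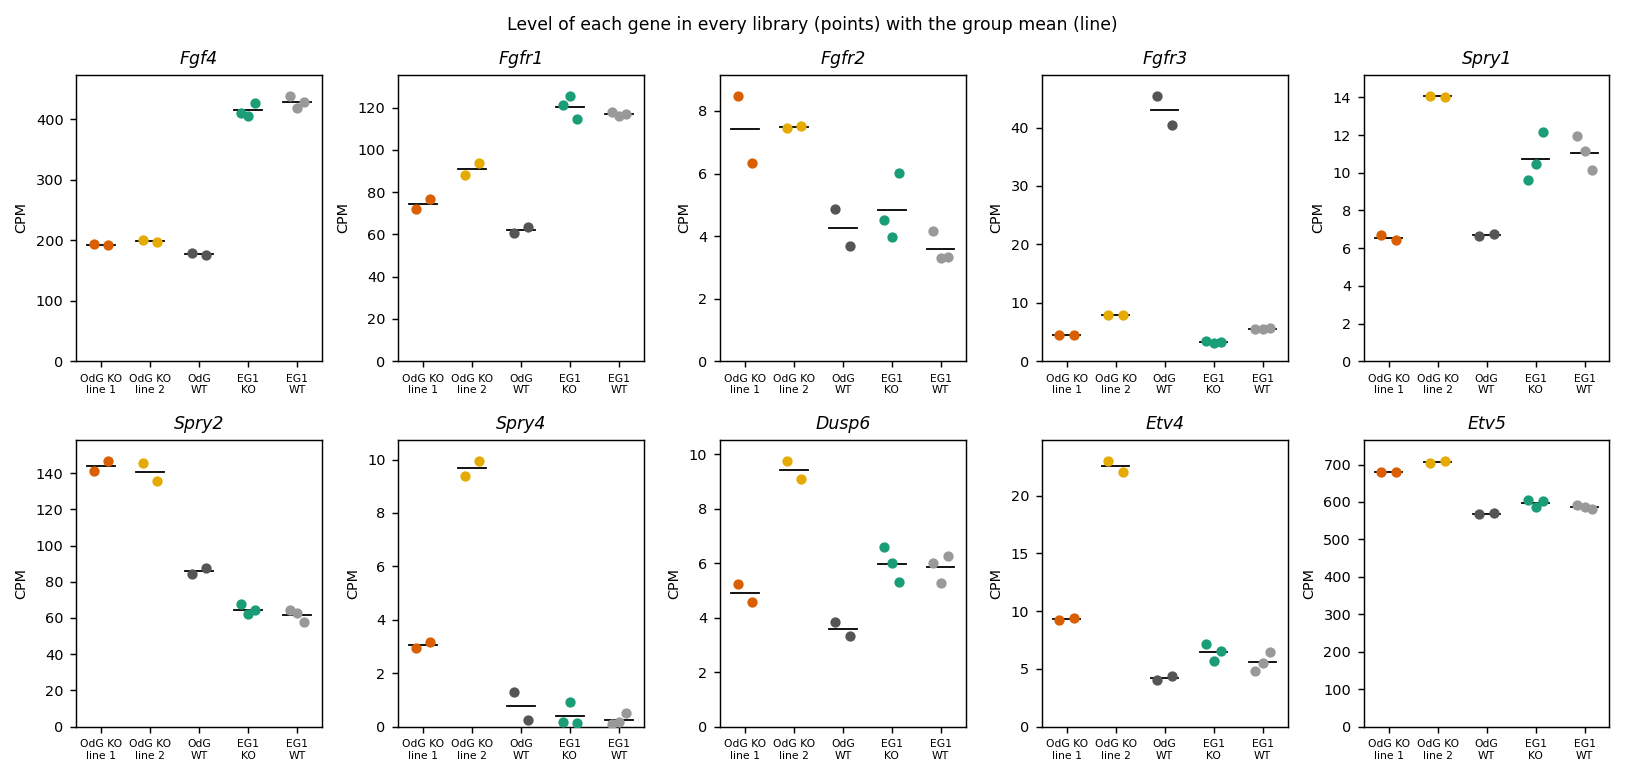
CPM (vertical axis, from 0, with its own scale in each panel) of each of the 10 genes by group, with 1 point per library and a line at the group mean. Both OdG WT points of Fgfr3, 45.4 and 40.4 CPM, stand above all other libraries, and Etv4 and Spry4 are highest in OdG KO line 2.

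The ligand gene Fgf4 (mm10 chromosome 7, 144861386 to 144865245, plus strand) changed little in either parent. It had 193 and 192 CPM in OdG KO line 1 and 201 and 197 CPM in line 2, against 178 and 176 CPM in OdG WT. The 4 OdG KO libraries lay above both WT libraries, by a log2 of 0.14 ± 0.032 (adjusted p = 0.00084). In EG1 it had 410, 406 and 427 CPM in KO and 439, 418 and 429 CPM in WT, and these ranges overlapped (log2 -0.05, adjusted p = 0.44). The difference between the OdG and the EG1 effect was 0.18 (adjusted p = 0.0022). The parents themselves were further apart than KO and WT of either one. Parent and deposited table cannot be told apart in that comparison.

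The receptors did not move together. Fgfr1 (chromosome 8, 25518759 to 25575718, plus strand), the main FGF receptor of mouse ESCs, had 72.2 and 76.9 CPM in OdG KO line 1 and 87.9 and 93.8 CPM in line 2, against 60.8 and 63.4 CPM in OdG WT. Line 2 was highest, line 1 in between and WT lowest, with no overlap (log2 0.41 ± 0.046 for the mean of both lines, adjusted p = 6.9e-07). In EG1 KO it had 121, 126 and 115 CPM, against 118, 116 and 117 CPM in EG1 WT, so that the KO range enclosed the WT range (log2 0.04, adjusted p = 0.61). The OdG effect exceeded the EG1 effect by 0.36 (adjusted p = 3.1e-05). Exons of Fgfr1 overlap 164 bases of an antisense gene, Gm16159, which had 2 to 4 counts per OdG library and 15 to 30 per EG1 library.

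Fgfr2 (chromosome 7, 130162451 to 130266808, minus strand) is a receptor that in the embryo marks cells on the way to primitive endoderm and trophectoderm. It had 8.49 and 6.35 CPM in OdG KO line 1 and 7.44 and 7.53 CPM in line 2, against 4.87 and 3.68 CPM in OdG WT. All 4 KO libraries lay above both WT libraries, and the ranges of the lines overlapped (log2 0.80 ± 0.157 for the mean, adjusted p = 0.00028). EG1 KO libraries had 4.50, 3.98 and 6.01 CPM, against 4.16, 3.30 and 3.33 CPM in EG1 WT. Those ranges overlapped and the difference did not pass the threshold (log2 0.42 ± 0.171, adjusted p = 0.13). Nor did the difference between the effects in OdG and EG1 (0.37 ± 0.243, adjusted p = 0.24). A stretch of 444 exon bases is shared with Ctbp2 on the same strand, a gene with 2500 to 4712 counts per library, so the Fgfr2 counts are uncertain to the extent that reads there were assigned to either gene.

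Fgfr3 (chromosome 5, 33721724 to 33737068, plus strand) was the exception among the 10 genes in both parents. It had 4.51 and 4.57 CPM in OdG KO line 1 and 7.99 and 7.92 CPM in line 2, against 45.4 and 40.4 CPM in OdG WT. In EG1 KO it had 3.42, 3.12 and 3.30 CPM, against 5.46, 5.60 and 5.66 CPM in EG1 WT. No KO library reached a WT library of its parent. The fall was 2.84 ± 0.084 on the log2 scale in OdG (log2 -2.84, adjusted p = 1.5e-14) and smaller in EG1 (log2 -0.76 ± 0.152, adjusted p = 0.00092). The difference between both effects was itself past the threshold (-2.08 ± 0.167, adjusted p = 2.3e-11).

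The order of Fgfr3 levels was OdG WT, OdG KO line 2, EG1 WT, OdG KO line 1 and EG1 KO from high to low, and no neighbouring ranges in that order overlapped, with CPM scaled within each table. The OdG WT level thus stood apart from every other group, EG1 WT included (log2 -2.92 for EG1 WT against OdG WT, adjusted p = 1.6e-22). The behaviour of the OdG WT libraries at Guf1 and Gnpda2 bears on the same 2 libraries, and its part in the Fgfr3 difference was not tested. Exons of Fgfr3 overlap 437 bases of the antisense gene G630022F23Rik, and how reads there were counted is not given in the sources used here.

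Expressed per kilobase of exon, which allows levels to be set side by side, the receptor mix differed between groups. Fgfr3 made up 6.1 and 6.2% of the summed CPM per kilobase of Fgfr1, Fgfr2 and Fgfr3 in OdG KO line 1 and 8.5 and 9.0% in line 2, against 41.6 and 45.0% in OdG WT. Fgfr1 made up 83.8 to 86.6% in line 1 and 83.7 to 84.6% in line 2, against 50.8 to 55.1% in OdG WT. In EG1 the Fgfr3 share was 2.8 to 3.1% in KO and 5.0 to 5.3% in WT. Fgfr1 was the most abundant of the 3 receptors in every group, and the share of Fgfr2 was at most 10.0% in any library. Fgfr4 was left out of these shares. Before scaling by length it averaged 6.02 CPM in EG1 WT and 5.16 CPM in EG1 KO. That was above Fgfr2 (3.60 and 4.83 CPM) and Fgfr3 (5.57 and 3.28 CPM). In OdG it was below both, at 2.29 CPM in KO line 1, 2.03 CPM in line 2 and 3.90 CPM in WT.

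**Figure D2:**
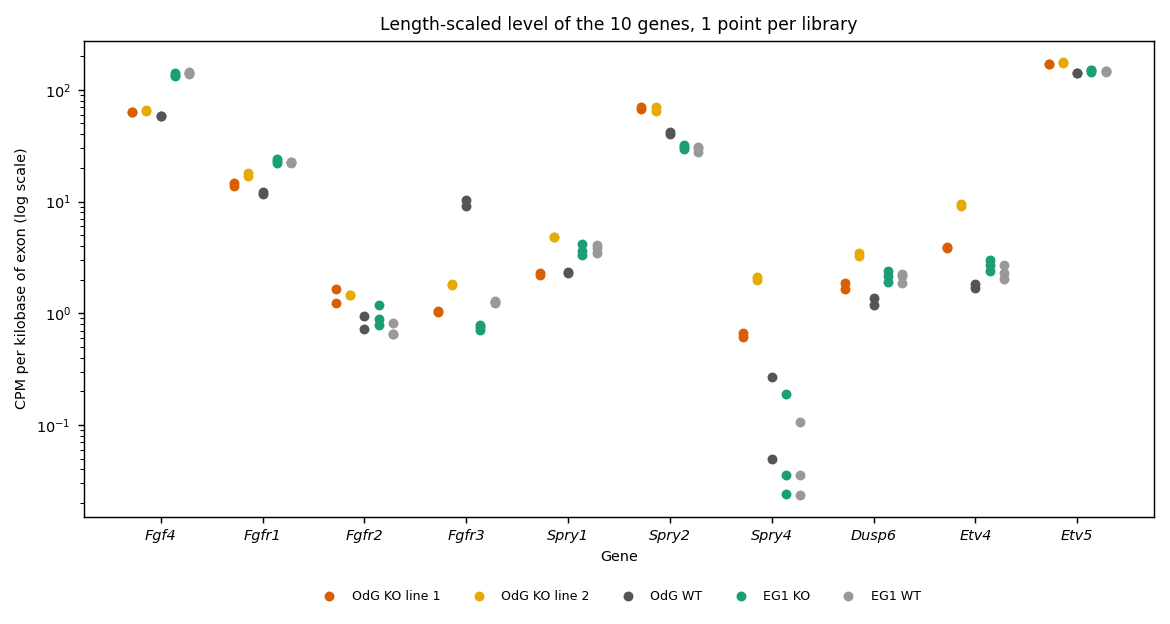
CPM per kilobase of exon (logarithmic vertical axis) for the 10 genes, with 1 point per library, coloured by group. Etv5 is highest in all 5 groups, Fgf4 and Spry2 follow, and Spry4 has the lowest group mean in every group except OdG KO line 2.

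On that scale Etv5 stood highest in all groups, at 169 CPM per kilobase in OdG KO line 1 and 176 in line 2, against 141 in OdG WT. Spry2 was above Fgf4 in OdG KO (69.0 against 63.5 in line 1 and 67.4 against 65.5 in line 2), whereas Fgf4 was above Spry2 in OdG WT (58.4 against 41.1). Spry4 was lowest in OdG KO line 1 (0.643), OdG WT (0.159), EG1 KO (0.0838) and EG1 WT (0.0551). The line 2 values of Spry2 and Fgf4 overlapped between libraries. In OdG KO line 2 Spry4 reached 2.03, above Fgfr2 and Fgfr3.

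Of the Sprouty genes, Spry2 (chromosome 14, 105891947 to 105896819, minus strand) was the most abundant. It had 141 and 147 CPM in OdG KO line 1 and 146 and 136 CPM in line 2, against 84.1 and 87.4 CPM in OdG WT. All 4 KO libraries were above both WT libraries, and the ranges of the lines overlapped (log2 0.73 ± 0.040, adjusted p = 6.9e-11; line 2 against line 1 log2 -0.03, adjusted p = 0.59). In EG1 KO it had 67.5, 62.1 and 64.1 CPM, against 64.5, 62.5 and 58.0 CPM in EG1 WT, and the ranges overlapped (log2 0.07, adjusted p = 0.49). The difference between the OdG and EG1 effects was 0.66 (adjusted p = 3e-09).

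Spry4 (chromosome 18) had the largest rise of the 10 genes and the least certain one. It had 2.94 and 3.17 CPM in OdG KO line 1 and 9.39 and 9.94 CPM in line 2, against 1.27 and 0.237 CPM in OdG WT. The raw counts were 54 and 50 in line 1 and 154 and 177 in line 2, against 22 and 4 in OdG WT. Every KO library was above both WT libraries, which differed widely from each other.

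The log2 fold change of Spry4 was 2.82 ± 0.303 (adjusted p = 3.7e-07), and it was 2.08 without the WT replicate of 4 counts and 4.48 without the WT replicate of 22 counts. In line 1 these values were 1.99, with 1.25 and 3.65, and in line 2 they were 3.65, with 2.92 and 5.31. In EG1 the gene had 3, 16 and 2 counts in KO and 2, 3 and 10 counts in WT, too few to be tested within that parent. The difference between the OdG and EG1 effects was 2.26 ± 0.844 (adjusted p = 0.033). That call did not hold when OdG WT replicate 2 was left out (adjusted p = 0.12), nor without EG1 WT replicate 3 (0.39), EG1 KO replicate 1 (0.074) or EG1 KO replicate 3 (0.078), nor in DESeq2 (0.19).

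Spry1 (chromosome 3, 37639947 to 37644599, plus strand) separated the OdG lines from each other. It had 6.69 and 6.41 CPM in OdG KO line 1 and 14.1 and 14.0 CPM in line 2, against 6.66 and 6.77 CPM in OdG WT. Line 2 held more than the other groups, while line 1 overlapped WT (line 1 log2 -0.03 ± 0.135, adjusted p = 0.85; line 2 log2 1.07 ± 0.119, adjusted p = 6.1e-07). The call for the mean of both lines (log2 0.52 ± 0.112, adjusted p = 0.00072) was lost with all 4 KO libraries pooled into 1 group (adjusted p = 0.25). In EG1 KO it had 9.63, 10.4 and 12.1 CPM, against 11.9, 11.1 and 10.1 CPM in EG1 WT, with overlapping ranges (log2 -0.04, adjusted p = 0.88). Exons of Spry1 overlap 710 bases of the antisense gene Gm42922.

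Dusp6 (chromosome 10, 99263231 to 99267489, plus strand), the ERK phosphatase gene, had 5.22 and 4.57 CPM in OdG KO line 1 and 9.76 and 9.10 CPM in line 2, against 3.82 and 3.32 CPM in OdG WT. Line 2 was well above WT, and line 1 was above it by less. The log2 fold change was 0.93 ± 0.146 for the mean (adjusted p = 3.1e-05, and 0.071 with all 4 KO libraries pooled into 1 group), 0.46 ± 0.174 in line 1 (adjusted p = 0.035) and 1.39 in line 2 (adjusted p = 5.6e-07). The line 1 call did not hold when OdG WT replicate 2 was left out (adjusted p = 0.17) or line 1 replicate 1 (0.22), with library totals as the only scaling (0.065) and in DESeq2 (0.16). In EG1 KO Dusp6 had 6.61, 6.02 and 5.32 CPM, against 6.02, 5.26 and 6.26 CPM in EG1 WT, and the ranges overlapped (log2 0.03, adjusted p = 0.93).

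Promoter sequence was searched on both strands for the octamers TGAATGAA, TCAATGAA, TGAATGGA and TCAATGGA. Capicua, a repressor that ERK relieves, binds these octamers. The search also covered CCGGAA, a longer spelling that holds the ETS core GGAA. The last 2 octamer spellings were added after the sequences had been seen. RefSeq promoter entries (GRCm38.p6) existed for 7 of the 10 genes, in 9 entries, and Fgfr1, Spry4 and Etv4 had none. In the 250 bases before each start, TCAATGAA lay 54 bases before the start of Spry2. TCAATGGA lay 24 bases before that of Dusp6, a match that rests on a spelling added after the sequences were seen. TGAATGAA or TCAATGAA was present in 1.70% of 32851 promoter windows of the same length, and any of the 4 spellings in 3.19%. Since that wider set was drawn up with the sequences in view, the share says nothing about the Dusp6 match. CCGGAA, present in 12.03% of those windows, was in 0 of the 9 windows of those 7 genes. None of the 4 octamer spellings was found in the windows of Fgf4, Fgfr2, Fgfr3, Spry1 and Etv5. The sequences below are shown because Spry2 and Dusp6 are the feedback genes with a match and Fgfr3 is the gene that fell. Spry2 is chr14:105896820-105897069 on the minus strand, Dusp6 is chr10:99262981-99263230 on the plus strand, and Fgfr3 is chr5:33721474-33721673 on the plus strand, the part before an annotated exon. Each reads 5′ to 3′, and capitals mark the octamer on either strand.
Spry2: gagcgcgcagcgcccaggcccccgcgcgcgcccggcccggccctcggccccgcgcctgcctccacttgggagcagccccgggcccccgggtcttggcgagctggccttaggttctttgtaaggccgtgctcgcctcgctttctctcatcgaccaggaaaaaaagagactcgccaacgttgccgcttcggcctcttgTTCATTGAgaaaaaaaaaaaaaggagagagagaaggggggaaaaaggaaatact
Dusp6: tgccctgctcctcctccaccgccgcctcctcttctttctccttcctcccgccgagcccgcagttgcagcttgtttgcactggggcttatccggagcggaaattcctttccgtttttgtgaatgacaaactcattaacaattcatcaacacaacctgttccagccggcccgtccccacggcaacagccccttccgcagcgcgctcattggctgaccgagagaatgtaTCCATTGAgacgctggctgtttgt
Fgfr3: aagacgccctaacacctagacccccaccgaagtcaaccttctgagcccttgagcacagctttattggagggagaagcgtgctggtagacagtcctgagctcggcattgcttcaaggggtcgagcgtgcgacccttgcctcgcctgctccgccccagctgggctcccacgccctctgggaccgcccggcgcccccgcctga
A match is a string of letters and not a measured site, and a window without one says only that these letters were not found in it.

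Etv4 (chromosome 11, 101769747 to 101785310, minus strand), an ETS factor gene of low abundance, had 9.19 and 9.40 CPM in OdG KO line 1 and 23.0 and 22.1 CPM in line 2, against 4.0 and 4.39 CPM in OdG WT. The 3 OdG groups were fully separate, with line 2 highest. The log2 fold change was 1.78 ± 0.116 for the mean (adjusted p = 5.3e-10), 1.15 ± 0.137 in line 1 (adjusted p = 1.9e-06) and 2.42 ± 0.119 in line 2 (adjusted p = 1.4e-11). EG1 KO libraries had 7.18, 5.68 and 6.53 CPM, against 4.84, 5.54 and 6.46 CPM in EG1 WT, and the ranges overlapped (log2 0.20 ± 0.14, adjusted p = 0.45). The OdG effect exceeded the EG1 effect by 1.58 (adjusted p = 5.3e-08).

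Etv5 (chromosome 16, 22381313 to 22439570, minus strand), the most abundant of the 10 per kilobase, rose by a small amount in OdG KO. It had 680 and 680 CPM in line 1 and 705 and 709 CPM in line 2, against 567 and 570 CPM in OdG WT. No KO library overlapped WT (log2 0.29 ± 0.025, adjusted p = 2.1e-08). EG1 KO libraries had 606, 586 and 602 CPM, against 592, 588 and 582 CPM in EG1 WT, and the ranges overlapped (log2 0.03, adjusted p = 0.67). The difference between effects was 0.25 (adjusted p = 5.9e-06).

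**Figure D3:**
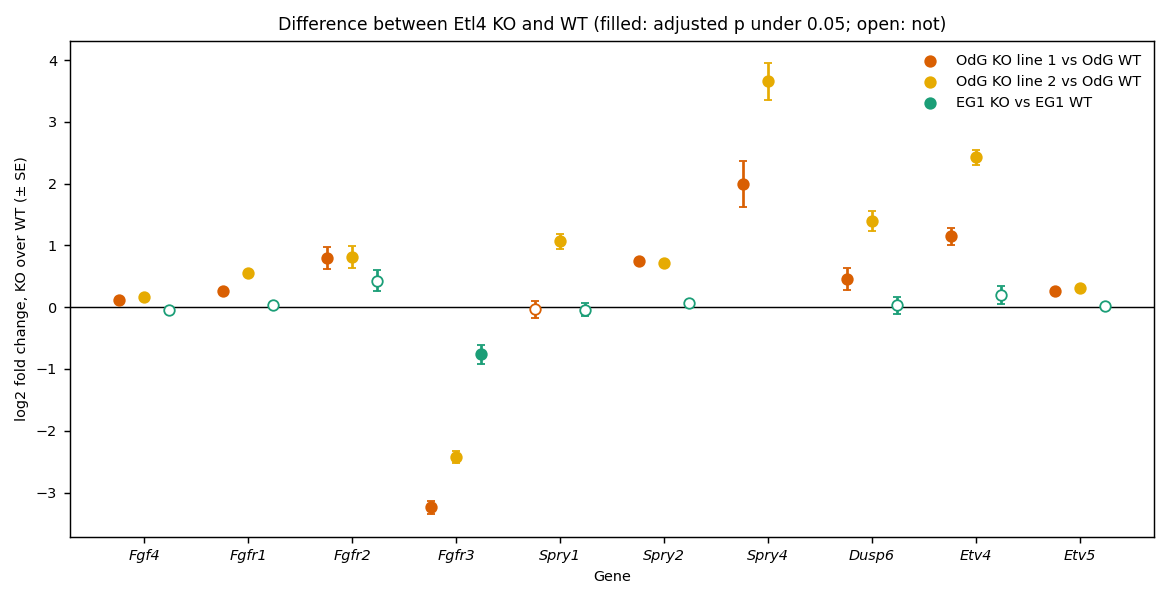
Log2 fold changes with their SE (vertical axis) for the 10 genes in OdG KO line 1 and OdG KO line 2 against OdG WT and in EG1 KO against EG1 WT, with filled points for an adjusted p under 0.05 and open points otherwise. Fgfr3 lies at -3.24 in line 1 and -2.43 in line 2, Spry4 and Etv4 have the highest line 2 points, and in EG1 the tested genes other than Fgfr3 lie between -0.05 and 0.42; Spry4 was not tested there.

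Each KO line was also compared with WT by itself and with the other line. Both lines share the OdG WT libraries. In line 1, 8 genes were higher, 1 was lower and 1, Spry1, was not called, with 26.8% of all genes called higher and 26.1% lower, 52.8% in all. In line 2, 9 were higher and 1 was lower, with 30.0% of all genes called higher and 29.8% lower, 59.9% in all. The median log2 fold change of the 10 genes was 0.36 in line 1 and 0.76 in line 2. Line 2 set against line 1 directly gave 6 genes higher, 0 lower and 4 not called, where 18.6% of all genes were called higher and 19.2% lower, 37.8% in all, with a median of 0.55 against 0.00 over all genes. At an unadjusted p under 0.05 the counts were the same, 6 and 0, and the share of all genes at that threshold was not computed. DESeq2 gave 5 and 0, with 3406 genes called in all.

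The genes higher in line 2 than in line 1 were Spry4 (log2 1.66 ± 0.222, adjusted p = 1.3e-05), Etv4 (1.28 ± 0.103, adjusted p = 2.6e-08), Spry1 (1.10 ± 0.120, adjusted p = 1.3e-06), Dusp6 (0.94 ± 0.146, adjusted p = 6.7e-05), Fgfr3 (0.81 ± 0.143, adjusted p = 0.00025) and Fgfr1 (0.29 ± 0.051, adjusted p = 0.00024). The Spry4 call was lost in DESeq2 (adjusted p = 0.072). Fgf4 (0.04, adjusted p = 0.36), Fgfr2 (0.00, adjusted p = 1), Spry2 (-0.03, adjusted p = 0.59) and Etv5 (0.06, adjusted p = 0.12) did not pass. Line 2 thus held more transcript of Spry1, Spry4, Dusp6 and Etv4, the feedback and ETS genes of low abundance, than line 1.

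The direct test of the OdG effect against the EG1 effect called 8 of the 10 genes higher and 1, Fgfr3, lower, where 20.2% of all genes were called higher and 19.5% lower, 39.8% in all. Fgfr2 was the gene not called. For Spry1, OdG KO line 1 (log2 -0.03) was close to EG1 KO (-0.04), and only line 2 (1.07) stood above it. Between the WT parents, EG1 WT was higher than OdG WT for 5 genes, lower for 3 and not called for 2, where 35.0% of all genes were called higher and 35.4% lower, 70.3% in all. Fgf4 (log2 1.29, adjusted p = 1e-23), Fgfr1 (0.93, adjusted p = 5.4e-17), Spry1 (0.74, adjusted p = 4.2e-06) and Dusp6 (0.73, adjusted p = 0.00019) were higher in EG1 WT, and Spry2 was lower there (-0.46, adjusted p = 3.2e-09). The Etv4 call (log2 0.45, adjusted p = 0.012) did not hold when OdG WT replicate 1 was left out (adjusted p = 0.096) or EG1 WT replicate 3 (0.076). That of Spry4 (-1.45, adjusted p = 0.046) came out at 0.20, with the opposite sign, without OdG WT replicate 1, and it was also lost without EG1 WT replicate 1 (adjusted p = 0.15) or 2 (0.12) and in DESeq2 (0.19).

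Of 83 other genes of the pathway, in 6 lists, 77 were tested in OdG KO, of which 32 were higher, 29 lower and 16 not called. Of all genes tested, 29.4% were higher and 30.5% lower. In EG1 KO 76 were tested, and 2 were higher and 5 lower, where 3.60% of all genes were higher and 4.06% lower.

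Among the other FGF ligands, 2 of 7 tested were higher and 2 lower in OdG KO, where 29.4% of all genes were higher and 30.5% lower. Fgf17 had 25.1 ± 1.1 CPM in line 1 and 17.5 ± 0.97 CPM in line 2, against 12.1 ± 0.87 CPM in OdG WT (SD, n = 2 each). In EG1 it went the other way, with 17.1 ± 1.2 CPM in KO against 23.5 ± 1.6 CPM in WT (SD, n = 3 each), and the effects differed by 1.23 (adjusted p = 1.1e-09). Fgf18 was higher in OdG KO (log2 1.51 ± 0.331, adjusted p = 0.00079), at low counts. It had 8 to 12 counts per library in OdG WT, 31 in line 1 and 25 to 28 in line 2. Fgf3 was slightly lower (log2 -0.32 ± 0.113, adjusted p = 0.021), with libraries that overlapped. By line, Fgf3 was lower in line 2 (log2 -0.58, adjusted p = 0.0014) and not called in line 1 (-0.06, adjusted p = 0.71). The other lower ligand gene was Fgf15 (log2 -0.97 ± 0.387, adjusted p = 0.039), likewise called in line 2 (-1.52, adjusted p = 0.013) and not in line 1 (-0.41, adjusted p = 0.42). The Fgf15 call was lost on leaving out any 1 of the 6 OdG libraries (adjusted p = 0.05 to 0.33), without the filter on low counts (0.06), in DESeq2 (0.2) and with the KO libraries pooled (0.19). In EG1 KO, 3 of 7 ligand genes were lower, where 4.06% of all genes were, and 0 were higher. The lower genes were Fgf7 (log2 -1.21 ± 0.213), Fgf1 (-0.64 ± 0.172) and Fgf17 (-0.45 ± 0.078). The Fgf3 call was lost when either OdG WT library, line 1 replicate 1 or line 2 replicate 1 was left out (adjusted p = 0.053 to 0.08), in DESeq2 (0.13) and with the KO libraries pooled (0.31). The Fgf1 call was lost without EG1 WT replicate 2 or 3 or EG1 KO replicate 3 (adjusted p = 0.089, 0.062 and 0.063) and in DESeq2 (0.065).

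Among the other receptors and co-receptors, 1 of 6 tested was higher and 4 lower in OdG KO, and 0 were called in EG1 KO. Of all genes, 29.4% were higher and 30.5% lower in OdG KO, and 7.66% were called in EG1 KO. Fgfrl1, a receptor-like protein that lacks the kinase domain, had 47.0 ± 3.3 CPM in line 1 and 35.4 ± 2.2 CPM in line 2, against 81.2 ± 0.64 CPM in OdG WT (SD, n = 2 each). The fourth FGF receptor gene, Fgfr4, was also lower (log2 -0.86 ± 0.187, adjusted p = 0.00074). Flrt1 (log2 -0.67 ± 0.255) and Flrt3 (log2 -0.49 ± 0.184) were the remaining lower genes (adjusted p = 0.031 and 0.028). Both were called in line 1 and not in line 2 (log2 -0.46 for Flrt1 and -0.33 for Flrt3, adjusted p = 0.19 for each). Their calls were lost without either OdG WT library, without line 1 replicate 1, in DESeq2 and with the KO libraries pooled, Flrt1 also without line 2 replicate 1 (adjusted p = 0.078 to 0.18 over these), and Flrt3 also without line 2 replicate 2 and in a fit of all 12 libraries (0.063 to 0.18). Flrt2, which encodes a membrane protein of the FLRT family, was higher (log2 1.64 ± 0.256, adjusted p = 3e-05). Its counts were low, at 14 to 16 per library in OdG WT, 29 to 34 in line 1 and 68 to 72 in line 2. Of heparan sulfate and proteoglycan genes, which supply co-receptors of FGF, 7 of 14 were higher and 6 lower in OdG KO, beside the same shares of all genes. Sdc4 was at log2 -0.98 ± 0.069, Hs6st2 at 0.89 ± 0.24 (adjusted p = 0.004, 0.3 in line 1 alone, and 0.14 with all 4 KO libraries pooled into 1 group) and Gpc4 at 0.73 ± 0.043. Sulf2, which removes sulfate from heparan sulfate, was the gene of that list higher in EG1 KO (log2 0.17 ± 0.037, adjusted p = 0.0032).

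Of the adaptors and the RAS, RAF, MEK and ERK genes, 11 of 21 were higher and 7 lower in OdG KO. Of all genes, 29.4% were higher and 30.5% lower there. The adaptor gene Gab1 had 38.8 ± 1.1 CPM in line 1 and 199 ± 0.34 CPM in line 2, against 34.8 ± 2.9 CPM in OdG WT (SD, n = 2 each). In EG1, Gab1 had 179 ± 1.8 CPM in KO and 174 ± 4.7 CPM in WT (SD, n = 3 each). With all 4 KO libraries pooled into 1 group the Gab1 call was lost (adjusted p = 0.13). The scaffold gene Ksr1 (log2 -0.54 ± 0.069) and the ERK1 gene Mapk3 (log2 -0.49 ± 0.046) were lower in both lines. In EG1 KO Ptpn11, the SHP2 phosphatase gene, was higher (log2 0.15 ± 0.042, adjusted p = 0.019), a call lost without EG1 WT replicate 1 or 3 or EG1 KO replicate 3 (adjusted p = 0.18, 0.097 and 0.051).

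The other inhibitors of the pathway went in both directions, with 6 of 14 higher and 4 lower in OdG KO. Of all genes, 29.4% were higher and 30.5% lower there. Those that fell included the phosphatase genes Dusp5 (log2 -0.88 ± 0.086), Dusp4 (-0.78 ± 0.121) and Dusp9 (-0.62 ± 0.032), each lower in both lines, and the fourth was the ubiquitin ligase gene Cblb (-0.38 ± 0.063). Those that rose included Spred1 (log2 0.49 ± 0.064), Spred2 (0.13 ± 0.042) and Spred3 (0.54 ± 0.198). Il17rd (0.43 ± 0.065) and Rasa1 (0.21 ± 0.041) rose as well. Spred3 was not called in line 1 (log2 0.21, adjusted p = 0.48). Other settings were not examined for the Spred genes, Il17rd and Rasa1. Cbl, a ubiquitin ligase of activated receptors, was higher in OdG KO (log2 0.29 ± 0.045) and lower in EG1 KO (log2 -0.15 ± 0.040, adjusted p = 0.018), and the effects differed by 0.43 (adjusted p = 9.2e-07). The EG1 call of Cbl was lost without EG1 WT replicate 1 or 3 or EG1 KO replicate 2 or 3 (adjusted p = 0.066 to 0.087).

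Of the other ERK-responsive genes, 5 of 15 were higher and 6 lower in OdG KO, where 29.4% of all genes were higher and 30.5% lower. Etv1, an ETS factor gene close to Etv4 and Etv5, had 8.89 ± 0.36 CPM in line 1 and 7.27 ± 0.45 CPM in line 2, against 3.08 ± 0.011 CPM in OdG WT (SD, n = 2 each). The cyclin D1 gene Ccnd1 (log2 0.86 ± 0.037) and Ier2 (0.25 ± 0.039) were higher in both lines. Myc was called for the mean (0.57 ± 0.100) but was higher in line 1 (log2 1.20) and not called in line 2 (-0.07, adjusted p = 0.66), and the call for the mean was lost with the KO libraries pooled (adjusted p = 0.25). Phlda1 was called for the mean (0.41 ± 0.166, adjusted p = 0.04) and in line 2 (0.71, adjusted p = 0.0029) and not in line 1 (0.12, adjusted p = 0.64). The Phlda1 call for the mean was lost on leaving out any OdG library but line 2 replicate 2 (adjusted p = 0.07 to 0.14), with library totals (0.064), in DESeq2 (0.18), with the KO libraries pooled (0.23) and in a fit of all 12 libraries (0.08). The immediate early genes Egr1 (log2 -2.01 ± 0.191, adjusted p = 8e-08) and Fos (-1.16 ± 0.128, adjusted p = 5.1e-07) were lower in both lines. Ier3 was lower in OdG KO (log2 -0.95 ± 0.079) and in EG1 KO (log2 -0.24 ± 0.073, adjusted p = 0.041), where the call was lost on leaving out any of the 3 WT libraries, or without KO replicate 2 or 3 (adjusted p = 0.07 to 0.14), in DESeq2 (0.13) and with the replicate number as a block (0.059). Fosl2 (log2 -0.93 ± 0.113), the ETS gene Elk3 (-0.54 ± 0.104, adjusted p = 0.00027) and Junb (-0.34 ± 0.074) were lower in OdG KO in both lines, and Ets1, Elk1 and Elk4 were not called. Ets2 was not called for the mean, being higher in line 1 (log2 0.33, adjusted p = 3.3e-06) and lower in line 2 (-0.38, adjusted p = 6.5e-07). Genes of the ETS family and immediate early genes thus included both higher and lower members. Ccnd1, Ier2, Myc, Phlda1, Fosl2, Elk3, Junb, Ets2, Fgf15, Flrt1, Flrt3 and Cblb were named after their values were seen, to complete counts. So were Spred1, Spred2, Spred3, Il17rd and Rasa1.

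**Figure D4:**
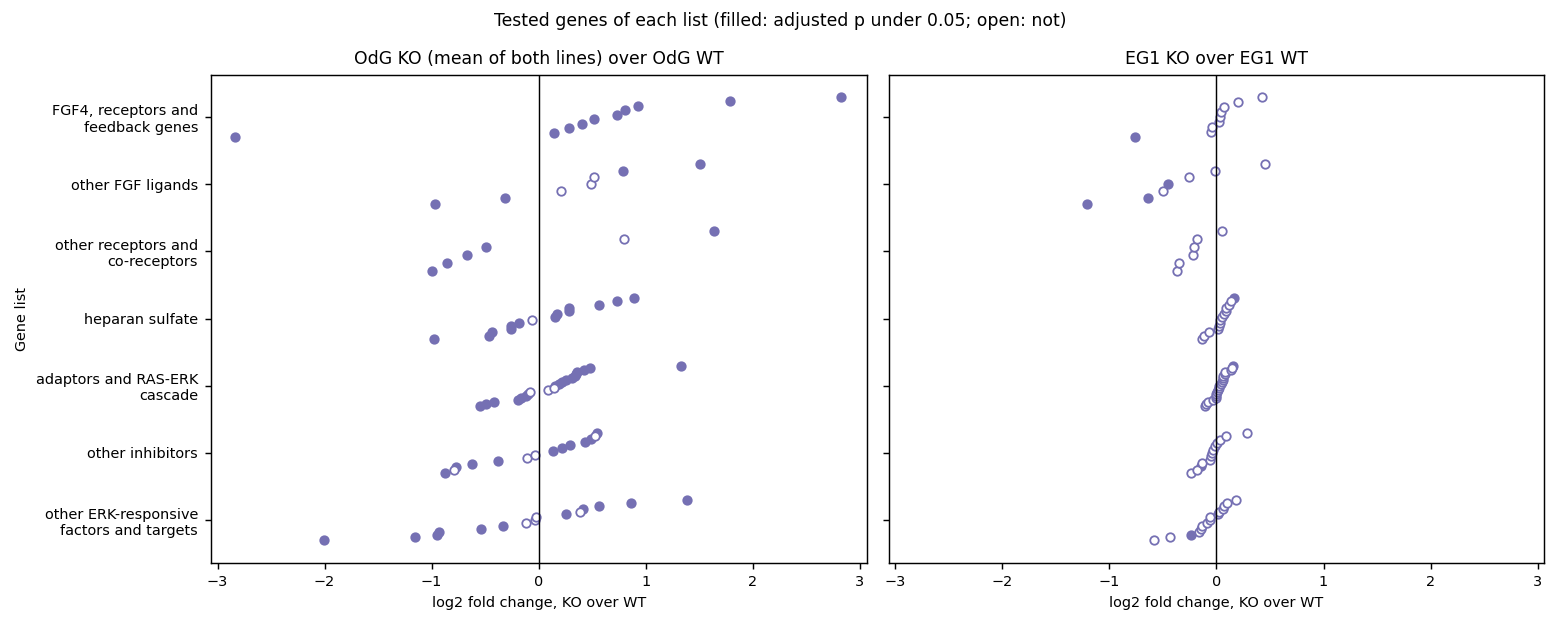
Log2 fold change (horizontal axis) of every tested gene of the 10 followed genes and of the 6 pathway lists, in OdG KO against OdG WT and in EG1 KO against EG1 WT, with filled points for an adjusted p under 0.05 and open points otherwise. Genes of each list are spread vertically in order of their value. In OdG KO every pathway list has called genes on both sides of 0, and in EG1 KO most points are open and near 0.

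Genes with a pattern most like that of a member were sought over the 12 libraries among 10658 genes, by the smallest root mean square difference in log2 CPM after centring each gene on its own mean. CPM in this paragraph was scaled over all 12 libraries. For Fgfr3 they were Pygl, Hif3a and Selenbp1 (differences of 0.24, 0.26 and 0.27 log2 units). Pygl, a glycogen phosphorylase gene, had 4.20 to 4.79 CPM in OdG KO line 1 and 6.03 to 7.04 CPM in line 2, against 26.2 to 27.0 CPM in OdG WT. In EG1 it had 2.12 to 3.10 CPM in KO and 3.73 to 4.76 CPM in WT. For Etv4 they were 4930550L24Rik, Mylpf and Xlr3c (0.23, 0.24 and 0.30), each highest in OdG KO line 2. For Spry4 they were Nlrp4c, Mid1 and Mageb4 (0.59, 0.69 and 0.74), a looser likeness. Nlrp4c had 10.5 to 10.7 CPM in line 1 and 53.8 to 55.2 CPM in line 2, against 5.48 to 5.65 CPM in OdG WT.

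Markers of the labelled cell type and of others were read beside these values, and in bulk RNA fewer cells of a type and less RNA per cell cannot be told apart. The summed level of 8 ESC pluripotency genes was 7189 to 7220 CPM in OdG KO line 1 and 6881 to 6910 CPM in line 2, against 5842 to 5903 CPM in OdG WT. All 8 were called higher in OdG KO, where 29.4% of all genes were, and 7 of 8 in line 2 alone. In EG1 that sum was 7872 to 8072 CPM in KO and 7844 to 7948 CPM in WT. The 9 primitive endoderm genes summed to 10.4 to 11.3 CPM in line 1 and 12.9 to 13.8 CPM in line 2, against 17.7 to 18.2 CPM in OdG WT, with 0 of 7 tested higher and 3 lower, where 30.5% of all genes were lower, and to 10.3 to 12.3 CPM in EG1 KO and 11.5 to 12.1 CPM in EG1 WT. Its genes Foxa2 and Cubn had at most 7 counts in any library.

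The 8 fibroblast genes, read because feeder cells are often present in ESC cultures, summed to 30.5 to 32.5 CPM in line 1 and 16.3 to 17.8 CPM in line 2, against 44.1 to 48.9 CPM in OdG WT. Of them Col3a1, Postn, Lum and Dcn had at most 6 counts in any library. The other 4 were tested, with 0 higher and 2 lower in OdG KO, where 29.4% of all genes were higher and 30.5% lower. These shares apply to each count in this paragraph for the mean of both lines. The 8 trophoblast genes summed to 308 to 311 CPM in line 1 and 167 to 178 CPM in line 2, against 240 CPM in both OdG WT libraries. Of 7 tested, 1 was higher and 4 lower for the mean of both lines. In line 1, 3 were higher and 3 lower, where 26.8% of all genes were higher and 26.1% lower. In line 2, 0 were higher and 4 lower, where 30.0% of all genes were higher and 29.8% lower. Sums in EG1 were 12.7 to 14.9 CPM in KO and 11.4 to 13.0 CPM in WT for fibroblast genes, and 21.3 to 24.4 CPM in KO and 15.0 to 16.6 CPM in WT for trophoblast genes. Summed epiblast and primitive streak genes were at 231 to 239 CPM in line 1 and 260 to 263 CPM in line 2, against 171 to 175 CPM in OdG WT. Of the 7 genes 1 was higher and 3 lower for the mean of both lines, with a median log2 fold change of -0.23. By line, 1 was higher and 1 lower in line 1, and 1 was higher and 2 lower in line 2. The gene higher for the mean, the DNA methyltransferase gene Dnmt3b, had 150 CPM on average in line 1 and 188 CPM in line 2, against 80.8 CPM in OdG WT. Neural genes summed to 67.8 to 69.6 CPM in line 1 and 53.4 to 58.0 CPM in line 2, against 42.8 to 43.4 CPM in OdG WT. Of the 4 tested, the tubulin gene Tubb3 was higher, with 36.1 CPM on average in line 1 and 30.1 CPM in line 2, against 8.49 CPM in OdG WT, while Nes was lower (log2 -0.31 ± 0.067) and 2 were not called. In EG1 the epiblast and streak sum was 156 to 161 CPM in KO and 127 to 140 CPM in WT, and the neural sum 85.9 to 101 CPM in KO and 78.9 to 81.7 CPM in WT. The part of these markers in the Fgfr3, Sprouty, Dusp6 and Etv differences was not tested.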

How the data were processed

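RNA-seq libraries of 12 samples were analysed. Trizol RNA went into NEBNext Ultra libraries, per the labels' protocols. The mm10 build, HISAT2 2.1.0 and featureCounts 1.6.4 are named in the submitters' processing notes, beside DESeq2. What the authors deposited are raw counts, whole numbers for each gene symbol, in 1 table for OdG and 1 for EG1. The gene models and the strand setting behind the counts were not given in the sources used here. Total counts were 16110028 to 18774032 per OdG library and 17421260 to 19706599 per EG1 library. By these totals alone 1 CPM would stand for 16.1 to 19.7 counts. The filter and scaling used here multiplied that number by 0.9777 to 1.0230, depending on the library.

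The analysis used edgeR 4.0.16 (R 4.3.3): filterByExpr, TMM scaling, a quasi-likelihood fit with 1 mean per group and two-sided tests, with Benjamini-Hochberg adjustment. The OdG fit held 14413 genes, the EG1 fit 14016, and the fit over all 12 libraries, used to compare effects and parents, 14977. CPM is scaled within each table, except for the search for like patterns and the levels of the genes it found. Those use scaling over all 12 libraries. Standard errors are the absolute log2 change divided by the square root of F. Alternatives used DESeq2 1.42.0 and other scalings, filters and left-out libraries. Exon lengths and overlaps came from GENCODE M21, gene positions and promoters from RefSeq GRCm38.p6. The replicates of no group agreed within sampling noise (chi-square over its degrees of freedom 1.86 to 3.70), so none were merged.

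The 10 genes and the lists were chosen with earlier results of these data known. The named pathway genes were up to 3 called genes per list and comparison with the largest log2 change and at least 1 CPM in the higher group. Like patterns were sought for the 3 members of widest range over the libraries, among genes of at least 5 CPM on average, with a pseudocount of 0.5 CPM.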

Additional observations from a re-analysis of the deposited data

Results flagged for a closer look

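A direct edgeR test set the mean effect of the 2 OdG KO lines against that of the single EG1 KO line. It called 9 of the 10 genes, 8 higher and 1 lower, where 39.8% of all genes were called. The test uses the spread between libraries, not between KO lines, so line and parent cannot be told apart in it. For Spry1, line 1 (log2 -0.03) was close to EG1 KO (-0.04), and line 2 was at 1.07. DESeq2 called 7 higher and 1 lower, with 4931 genes called in all. Spry4 was not called there. Its edgeR call was also lost on leaving out some single EG1 libraries (adjusted p = 0.074 to 0.39) or OdG WT replicate 2. The OdG effect minus the EG1 effect was 2.26 for Spry4, 1.58 for Etv4, 0.89 for Dusp6, 0.66 for Spry2, 0.55 for Spry1, 0.36 for Fgfr1, 0.25 for Etv5 and 0.18 for Fgf4 on the log2 scale, and -2.08 for Fgfr3. The 2 OdG KO lines also differed from each other. Line 2 minus line 1 was 1.66 for Spry4, 1.28 for Etv4, 1.10 for Spry1, 0.94 for Dusp6, 0.81 for Fgfr3 and 0.29 for Fgfr1.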

How the results depend on the processing

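Of 1000 recomputed values of the 10 genes and Etl4, 953 kept their direction and their side of the threshold, 22 lost the call, 10 gained one and 15 changed sign. The counts of the 10 genes called higher or lower moved by over 1.5 times under 0 of the alternatives, a loose rule for counts out of 10. Genes called higher fell from 9 to 7 in OdG KO with all 4 KO libraries pooled. In line 1 they fell from 8 to 6 with library totals as the only scaling. Where leaving out a library left an arm with 1 sample, it was taken to vary as the other groups do.

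The number of genes called in OdG KO was 4609 with all 4 KO libraries pooled into 1 group, against 8638. DESeq2 called 3406 genes for line 2 against line 1, against 5454, and 698 in EG1 KO, against 1074; leaving out EG1 libraries gave 638 to 1213 there. With library totals as the only scaling the share of higher calls in EG1 KO was 32.2%, against 47.0%. The cause was not tested.

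Sign changes were at values near 0 or at low counts. Line 2 against line 1, leaving out libraries, ranged from -0.18 to 0.24 for Fgfr2 (0.00 without the low-count filter) and from -0.09 to 0.02 for Spry2. EG1 KO ranged from -0.14 to 0.03 for Spry1 and from -0.05 to 0.11 for Dusp6. The OdG effect minus the EG1 effect on Etl4 was -0.01 with library totals and -0.02 to 0.02 on leaving out libraries. EG1 WT against OdG WT for Spry4 ranged from -2.35 to 0.20.

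The Fgf4 call in line 1 was lost with library totals (adjusted p = 0.17) and without line 1 replicate 1 (adjusted p = 0.063). Etv5 passed for line 2 against line 1 with library totals (adjusted p = 0.018) and without OdG WT replicate 1 (0.035) or 2 (0.024). For EG1 WT against OdG WT it stood at the threshold (adjusted p = 0.05, not called) and passed in 7 of 17 settings, among them RLE size factors (0.032), no filter on low counts (0.036) and DESeq2 (0.021), which brought the genes called higher to 6, against 5. Same-numbered replicates did not deviate together (correlations of -0.04 to 0.04), so the numbers were not taken as pairs. With the replicate number as a block, the genes called were 8542 in OdG KO, 7515 in line 1, 8566 in line 2, 5334 for line 2 against line 1, 906 in EG1 KO, 5863 for the difference between effects and 9445 for EG1 WT against OdG WT, and of the 10 genes 4 were called higher in that last comparison, against 5, where Etv4 lost its call (adjusted p = 0.054).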
